A study of Mus musculus with 20 samples.

Results

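Wif1, Sfrp1, Dkk3, Nkd1, Nkd2 and Axin2, inhibitors and feedback targets of Wnt signalling, were followed in hair follicle stem cells, the cells of the follicle's bulge from which a new hair is grown. The 6 genes were chosen by name, their probes being identified by the RefSeq accession that the array design gives, and all 6 were among the 18727 genes that passed the filter on dim probes, Nkd1 of them through the younger telogen groups and 3 of the 5 anagen arrays. Total RNA of male mice was labelled with Cy3 as cDNA and hybridised to 20 one-colour Agilent arrays. Mice aged 5 months had received a normal diet (ND) or a high fat diet (HFD) for 3 months, mice aged 2 months had received either diet for 4 days, and a further group was aged 24 months with no diet named. Each of these 5 conditions had 3 telogen arrays (resting follicles) and 1 anagen array (growing follicles). The labels give no strain, and they do not say how the stem cells were isolated, whether animals were pooled or whether replicates came from separate mice.

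Wnt ligands bind Frizzled receptors at the cell surface and stabilise beta-catenin, which enters the nucleus and switches on target genes together with TCF and LEF factors. In skin this pathway is known for starting the growth of a resting follicle, and bulge cells are known to make secreted Wnt inhibitors in telogen. Wif1 is a secreted protein that binds Wnt ligands, Sfrp1 is a secreted protein with a Frizzled-like domain that also binds them, and Dkk3 is a secreted glycoprotein of the Dickkopf family. Nkd1 and Nkd2 are intracellular proteins that bind Dishevelled and dampen the signal. Axin2, a scaffold of the complex that degrades beta-catenin, is itself a widely used target gene of the pathway.

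Promoters of 300 bases (250 before and 50 after the start) from RefSeq, build GRCm38.p6, were found for 4 of the 6 genes, Wif1, Nkd1, Nkd2 and Axin2. Those of Wif1, the member with a promoter entry that passed the test between phases, and of Axin2, the standard target gene, are printed so that the search for the TCF and LEF core can be followed. The Wif1 promoter lies at chr10:121033754-121034053 on the plus strand and the Axin2 promoter at chr11:108920099-108920398 on the plus strand, and capitals mark the core CTTTG.
Wif1: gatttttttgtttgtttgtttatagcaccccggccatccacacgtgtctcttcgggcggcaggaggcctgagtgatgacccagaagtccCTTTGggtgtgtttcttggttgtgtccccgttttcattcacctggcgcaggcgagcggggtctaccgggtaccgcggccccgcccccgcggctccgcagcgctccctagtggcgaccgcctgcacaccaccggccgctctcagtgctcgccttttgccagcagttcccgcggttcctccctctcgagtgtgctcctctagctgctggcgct
Axin2: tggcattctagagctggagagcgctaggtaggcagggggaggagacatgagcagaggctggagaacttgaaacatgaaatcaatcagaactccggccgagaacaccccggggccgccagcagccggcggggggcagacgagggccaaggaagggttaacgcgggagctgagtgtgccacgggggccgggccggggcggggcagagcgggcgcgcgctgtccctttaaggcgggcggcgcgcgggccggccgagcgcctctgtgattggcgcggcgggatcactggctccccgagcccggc
The 4 longer words made of this core followed by AA, AT, TA or TT were searched on both strands and occurred in none of the 4 promoters. Among all 32851 promoters of this length, 16.9% held at least 1 of these words. The core alone, which overlaps all 4 words, occurred in the Wif1 promoter at position -161 on the plus strand and in none of the other 3, against 53.9% of all promoters. These are letter matches in short windows and not binding sites. The promoters of Wif1, Axin2 and Nkd2 held 25, 31 and 26 CpG dinucleotides and that of Nkd1 held 6, with a median of 7 over all promoters.

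Levels are given as log2 of the processed intensity after subtracting the 75th percentile of the array, so that 0 is the level of that percentile. Of the spots of an array, 60.7% to 83.49% were well above background and 0 were saturated. The labelled cell type was checked against 10 bulge markers (Cd34, Krt15, Sox9, Lhx2, Nfatc1, Tcf7l1, Itga6, Krt5, Krt14 and Col17a1), and all 10 were well above background on all 20 arrays. Several defining markers of other cell types, Ptprc and Adgre1 of macrophages, Pdgfra and Pdgfrb of fibroblasts, Cdh5, Kdr and Tek of endothelium and Trac of T cells, did not pass the filter. Others were well above background on all 20 arrays, among them Itgam, Csf1r, Cd68 and Cd207 of macrophages and Langerhans cells, Cd3e of T cells and Col1a2, Col6a1 and Vim of fibroblasts. Crabp1 of the dermal papilla, Scd3 of sebocytes, Dct of melanocytes and Adipoq, Plin1 and Lep of adipocytes were also among them. Alx4 and Sox2 of the dermal papilla and Tyrp1 of melanocytes did not pass the filter. Pecam1 of endothelium passed it and was well above background on 17 of 20 arrays. Col1a1 of fibroblasts was so on 17, Lyz2 of macrophages on 11, Cd2 of T cells on 10, Fabp4 of adipocytes on 6 and Dcn of fibroblasts on 3. In multiples of the 75th percentile the telogen level of Itgam was 97.8 to 205.0, that of Csf1r 2.63 to 4.98 and that of Col6a1 2.66 to 16.0. Cd68 read 0.06 to 3.80, Cd207 0.09 to 0.38 and Lyz2 0.016 to 0.071 on the same scale. The part of such cells in the values of the members was not tested. The arrays lay on 3 slides. All anagen arrays were in column 1 and all telogen arrays in columns 2 to 4, so phase and column cannot be told apart. On slides 1 and 2 the ND telogen arrays occupied row 1 and the HFD telogen arrays row 2. The telogen comparisons of diet are therefore also comparisons of rows within a slide. The aged telogen arrays were on slide 3 with no other telogen array, so age and slide cannot be told apart. Slide 3 was also scanned in a separate group from slides 1 and 2.

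The secreted inhibitor Wif1 was well above background on all 20 arrays. Its log2 levels in telogen were 0.87, -0.51 and -0.70 in ND 3 months and -0.71, -2.22 and -0.73 in HFD 3 months. They were -1.32, -0.74 and -0.17 in ND 4 days and -1.42, -0.96 and 0.46 in HFD 4 days, and -1.80, -0.64 and -0.40 in aged mice. Group means ran from -0.11 ± 0.86 (SD, n = 3) in ND 3 months down through HFD 4 days, ND 4 days and aged to -1.22 ± 0.87 in HFD 3 months. Neighbouring groups in this order overlapped, and the spread within a group was about as large as the spread between means. On the anagen arrays the level was -1.49 for ND and -4.67 for HFD at 3 months, -2.92 for ND and -2.63 for HFD at 4 days, and -1.74 for aged mice.

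Sfrp1 was well above background on all 20 arrays and had a narrow spread in most groups. Its log2 levels in telogen were 4.34, 4.23 and 4.72 in ND 3 months and 4.53, 4.60 and 4.79 in HFD 3 months. They were 3.89, 4.30 and 3.73 in ND 4 days and 3.69, 3.82 and 4.07 in HFD 4 days, and 3.17, 4.46 and 4.12 in aged mice. Means ran from 4.64 ± 0.14 in HFD 3 months through ND 3 months, ND 4 days and aged to 3.86 ± 0.19 in HFD 4 days (SD, n = 3), with overlap between neighbours in this order. In anagen Sfrp1 read 4.05, 4.38, 4.08, 4.15 and 3.85 for ND and HFD at 3 months, ND and HFD at 4 days and aged, inside the telogen range.

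Dkk3 had the tightest replicates of the 6 genes in ND 3 months and HFD 3 months. Its log2 levels were 4.33, 4.42 and 4.39 in ND 3 months telogen and 4.10, 4.11 and 4.06 in HFD 3 months telogen. They were 3.63, 4.16 and 4.18 in ND 4 days and 3.91, 4.21 and 4.36 in HFD 4 days, and 4.08, 4.02 and 3.92 in aged telogen. The order of means was ND 3 months (4.38 ± 0.05), HFD 4 days, HFD 3 months, aged and ND 4 days (3.99 ± 0.31; SD, n = 3), and neighbours overlapped. The 5 anagen arrays read 2.79, 3.10, 2.44, 3.16 and 3.13 for ND and HFD at 3 months, ND and HFD at 4 days and aged. All of these lay below all 15 telogen arrays.

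Nkd1 was the dimmest of the members against background, well above it on 15 of the 20 arrays. Its log2 levels in telogen were -4.50, -3.50 and -1.86 in ND 3 months and -3.79, -3.50 and -1.38 in HFD 3 months. They were -3.21, -1.93 and -1.77 in ND 4 days and -0.71, -2.78 and -3.07 in HFD 4 days. The aged telogen arrays read -5.84, -5.92 and -4.76, none of them well above background, whereas all 12 younger telogen arrays were. Means ran from -2.19 ± 1.29 in HFD 4 days through ND 4 days, HFD 3 months and ND 3 months (-3.28 ± 1.33) to aged (-5.51 ± 0.65; SD, n = 3). The 4 younger groups overlapped with their neighbours in this order, and the aged group overlapped with none. In anagen Nkd1 was well above background in ND 3 months (-3.21), ND 4 days (-4.07) and aged (-4.40), and not in HFD 3 months (-5.64) or HFD 4 days (-5.40).

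Nkd2 was well above background on all 20 arrays. Its log2 levels in telogen were 1.27, 1.91 and 1.99 in ND 3 months and 1.76, 2.26 and 1.91 in HFD 3 months. They were 2.55, 2.86 and 2.32 in ND 4 days and 2.31, 3.14 and 2.12 in HFD 4 days, and 1.72, 1.56 and 2.23 in aged mice. Both groups of 2-month-old mice had the highest means, 2.58 ± 0.27 in ND 4 days and 2.52 ± 0.54 in HFD 4 days, followed by HFD 3 months, aged and ND 3 months (1.72 ± 0.39; SD, n = 3), each overlapping the next. The anagen arrays read 0.43 in ND 3 months, 1.63 in ND 4 days, 1.19 in HFD 4 days, 1.35 in aged and 2.90 in HFD 3 months, the last of which stood above all but 1 of the telogen arrays. A second Nkd2 probe was well above background on 8 arrays and was not tested.

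Axin2, well above background on all 20 arrays, varied by up to 1.84 (SD) within a telogen group. Its log2 levels on the brighter probe were 0.23, 0.15 and 0.57 in ND 3 months telogen and -0.42, -0.38 and -2.67 in HFD 3 months telogen. They were 0.56, -1.83 and 0.49 in ND 4 days and -0.90, -0.54 and -1.65 in HFD 4 days, and -2.72, -2.36 and 0.63 in aged telogen. The highest and the lowest of the 15 telogen arrays were therefore both from aged mice. Means ran from 0.32 ± 0.22 in ND 3 months through ND 4 days, HFD 4 days and HFD 3 months to -1.48 ± 1.84 in aged (SD, n = 3), with overlap between neighbours. In anagen it read -1.65, -3.54, -3.03, -0.98 and -0.04 for ND and HFD at 3 months, ND and HFD at 4 days and aged.

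**Figure D1:**
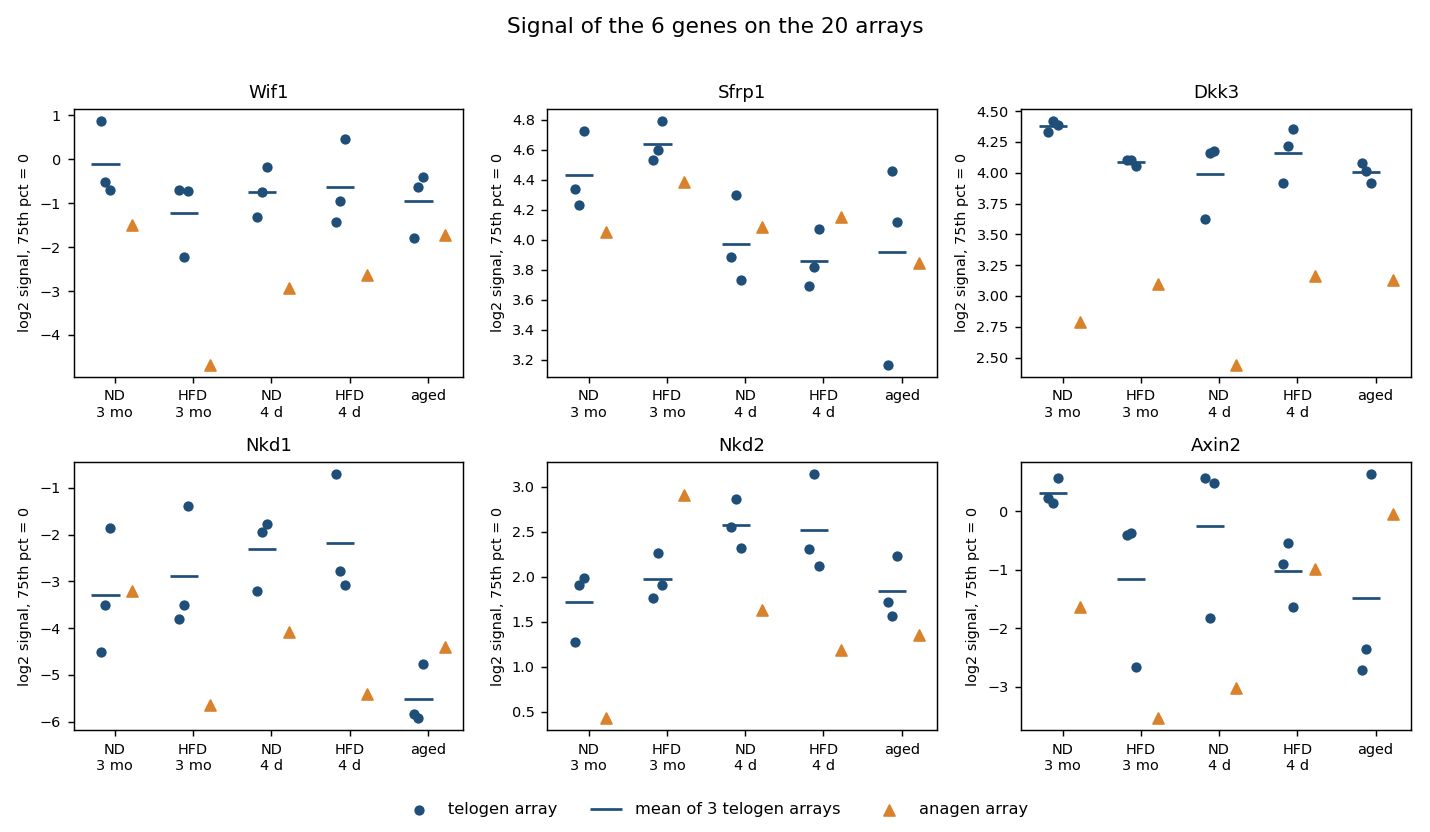
Log2 signal of the brightest probe of each gene (vertical axis, 75th percentile of the array = 0) by condition (horizontal axis). Circles are single telogen arrays, bars the mean of 3 and triangles the single anagen array, and the panels have separate vertical scales. The 5 Dkk3 triangles (2.44 to 3.16) lie below all telogen circles, and the aged Nkd1 circles (-5.92 to -4.76) lie below all younger ones and were not well above background.

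The comparison of anagen with telogen asks how these inhibitors differ between the growing and the resting phase. Dkk3 and Wif1 fell, and the other 4 members did not pass the test. Over the 5 conditions Dkk3 fell by 1.20 ± 0.15 on the log2 scale (SE; 95% interval -1.53 to -0.87), to a level 2.30-fold lower in anagen (limma, adjusted p 0.000281). Wif1 fell by 1.96 ± 0.41 (interval -2.83 to -1.08), 3.88-fold lower (limma, adjusted p 0.00977). Anagen gave 2 called genes of 6, both lower, where 6.11% of all genes were called (1145 of 18727, of which 619 were lower, 3.31%). The members were chosen with earlier results of these data known, so setting their share beside that of all genes is a description and not a test. In bulk RNA, fewer cells of a type and less RNA per cell cannot be told apart.

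Within conditions, anagen minus the telogen mean of Dkk3 was -1.59 for ND and -0.99 for HFD at 3 months, -1.54 for ND and -1.0 for HFD at 4 days, and -0.87 for aged mice. The difference was thus below 0 in 5 of 5 conditions. No anagen array overlapped with a telogen array, a pattern that 0.716% of genes showed in this direction. A second Dkk3 probe (A_55_P2083609) also fell, by 0.99 ± 0.16 (limma over 43374 probes, adjusted p 0.00239), with differences of -1.44 to -0.69. On it the highest anagen array, 2.85 in HFD 3 months, was slightly above the lowest telogen array, 2.81 in aged mice.

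For Wif1 the within-condition differences were -1.37 for ND and -3.45 for HFD at 3 months, -2.18 for ND and -1.99 for HFD at 4 days, and -0.79 for aged mice. All 5 were below 0, from 1.73-fold to 10.95-fold lower, but the anagen range (-4.67 to -1.49) overlapped the telogen range (-2.22 to 0.87). In ND 3 months, ND 4 days and aged mice the anagen array shared its slide with the telogen arrays of its condition. A fit over those 3 conditions kept Dkk3 (-1.34, adjusted p 0.0184) and lost the Wif1 call (-1.45, adjusted p 0.12). A slide block over all conditions takes its phase difference from the same 3 conditions, because its slide terms absorb the 2 HFD conditions. It therefore gave the same Wif1 difference (-1.45, limma, adjusted p 0.11) and is not a second check.

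Sfrp1 had a fitted difference between phases of -0.06 ± 0.20 (interval -0.47 to 0.35; adjusted p 0.876). Its interval did not reach the fitted differences of Dkk3 and Wif1. Its within-condition differences ran from -0.38 in ND 3 months to 0.29 in HFD 4 days, with 3 of 5 below 0. The sign of the fitted value turned under quantile normalization (0.02), scaling by the median (0.15) and array weights (0.03), and without the ND 3 months anagen array (0.02).

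The within-condition differences of the intracellular members lay on both sides of 0. Nkd2 had a difference of -0.63 ± 0.28 (interval -1.22 to -0.035; adjusted p 0.195), with 4 conditions between -1.33 and -0.49 and HFD 3 months at 0.93. Without the HFD 3 months anagen array it was -1.02 and passed the test (adjusted p 0.0153). Nkd1 had a difference of -1.31 ± 0.62 (interval -2.62 to -0.0038; adjusted p 0.218), with values of -2.75, -1.77 and -3.22 in HFD 3 months, ND 4 days and HFD 4 days against 0.07 and 1.11 in ND 3 months and aged. Its anagen values rest on 3 of 5 arrays well above background, and its aged telogen values on none. Axin2 had a difference of -1.13 ± 0.64 (interval -2.48 to 0.23; adjusted p 0.303), with -1.96, -2.38 and -2.77 in ND 3 months, HFD 3 months and ND 4 days and 0.04 and 1.44 in HFD 4 days and aged. This pattern depended on the probe. The other Axin2 probe gave 0.07, -1.35 and -1.22 in the first 3 of these conditions, -2.88 in HFD 4 days and -0.21 in aged.

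**Figure D2:**
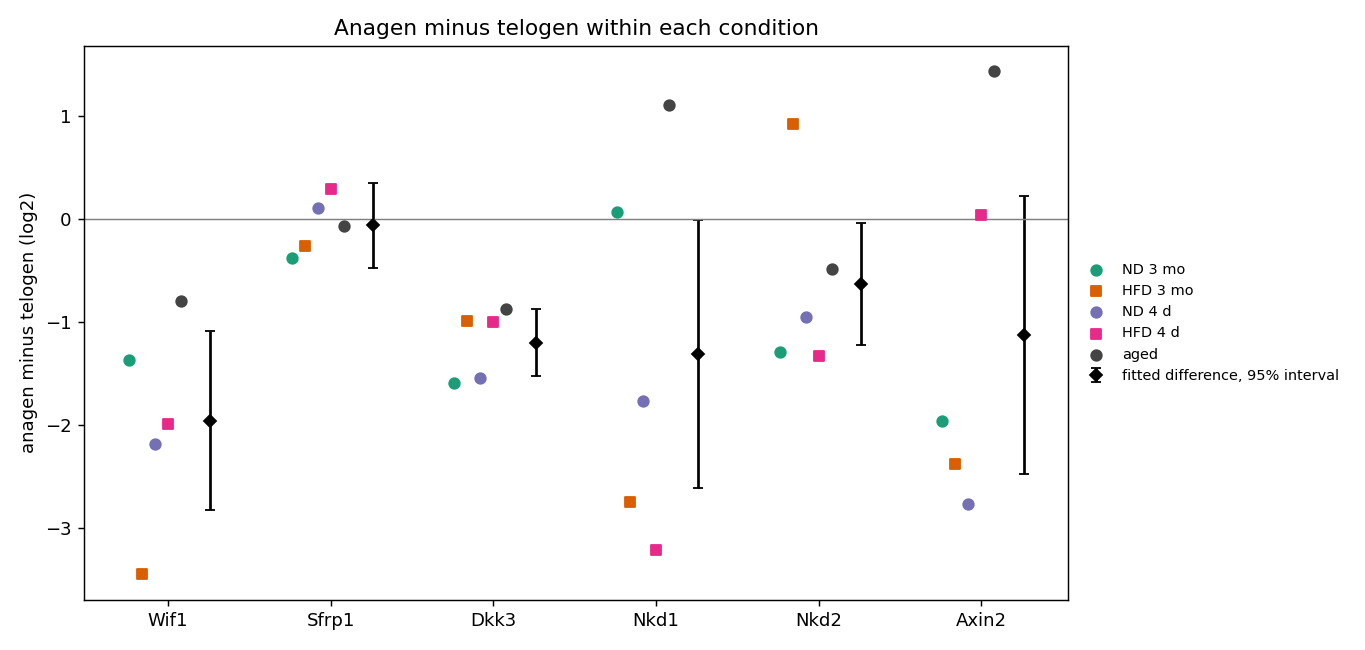
Anagen array minus the mean of 3 telogen arrays of the same condition, in log2 (vertical axis), for each gene (horizontal axis). Circles are conditions whose anagen array shared the slide with its telogen arrays, squares are the others, and black diamonds with bars are fitted differences with 95% intervals. All 5 points lie below 0 for Wif1 (-3.45 to -0.79) and Dkk3 (-1.59 to -0.87), and they lie on both sides of 0 for the other 4 genes.

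All 6 fitted differences were below 0, with a median of -1.16, beside a median of -0.16 and 60.37% below 0 over all genes. Scaling by the median moved the median of all genes to 0.06, and under it 336 of the called genes were lower and 653 higher, while Dkk3 and Wif1 stayed lower and called. With single anagen arrays left out, the number of genes called over all genes was 555 (without ND 3 months), 2056 (without HFD 3 months), 609 (without ND 4 days), 563 (without HFD 4 days) and 761 (without aged), and Dkk3 and Wif1 were called each time. Of the 10 bulge markers, 9 had a difference below 0 in the same comparison, and Cd34 (-2.19 ± 0.20, adjusted p 1.99e-05), Krt15 (-0.81 ± 0.18, 0.0137) and Col17a1 (-0.72 ± 0.16, 0.0128) fell. The summed linear level of the 10, in multiples of the 75th percentile, was 388.8 to 695.0 in telogen and 354.4 to 529.97 in anagen. Of the 4 hair germ markers, Gli1 (1.52 ± 0.37, adjusted p 0.0219) and Ptch1 (1.47 ± 0.41, 0.0458) rose. Cdh3 (0.71 ± 0.24) and Lgr5 (-0.19 ± 0.21) were not called. The hair germ sum was 15.2 to 31.2 in telogen and 22.9 to 42.6 in anagen. Of the 7 tested fibroblast markers 3 were below 0, with a median difference of 0.30. Col1a2 and Col6a1 fell, and Dcn was called higher with only 3 of 20 arrays well above background. Thy1 (0.95), Vim (0.61) and Col3a1 (0.30) were above 0 and Col1a1 (-0.75) below, none of them called. The fibroblast sum was 8.79 to 27.2 in telogen and 7.38 to 16.9 in anagen. The sum over interfollicular differentiation markers was 30.9 to 115.1 in telogen and 77.6 to 113.97 in anagen, with 0 of the 4 tested below 0, a median difference of 1.02 and 1 called higher. Of the 4 tested red blood cell markers all 4 were below 0 (median -1.20) and 1 was called lower, and the sum was 0.40 to 6.07 in telogen and 0.41 to 1.31 in anagen. The part of these marker changes in the Dkk3 and Wif1 results was not tested.

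Between the single anagen arrays, HFD minus ND at 3 months was -3.19 for Wif1, -1.89 for Axin2 and 2.47 for Nkd2, and 0.33 and 0.31 for Sfrp1 and Dkk3. At 4 days the same differences were 0.29 for Wif1, 2.04 for Axin2, -0.44 for Nkd2, 0.07 for Sfrp1 and 0.72 for Dkk3. On the other tested probes of Axin2 and Dkk3 the sign was the same at 3 months and the opposite at 4 days. At 4 days Axin2 there read -4.07 in HFD and -2.75 in ND, and Dkk3 2.27 in HFD and 2.66 in ND. No difference is given for Nkd1, which was not well above background on either HFD array. With 1 array per diet these have no replicate check.

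The diet comparisons ask whether the members differ in telogen between high fat and normal diet. After 3 months Wif1, Dkk3 and Axin2 had lower means in HFD than in ND, and no member passed the test. The Wif1 difference was -1.11 ± 0.63 (SE; interval -2.48 to 0.27), that of Dkk3 -0.29 ± 0.23 (-0.80 to 0.22) and that of Axin2 -1.47 ± 0.91 (-3.45 to 0.51). The 3 HFD arrays of each of these genes lay below the 3 ND arrays, a pattern that 5.7% of all genes showed. For Wif1 the nearest arrays of the groups read -0.71 and -0.70. Sfrp1, Nkd1 and Nkd2 had differences of 0.21 ± 0.33, 0.39 ± 0.84 and 0.25 ± 0.34 with overlapping groups. All 6 had an adjusted p of 1, and limma called 0 of 6 members, none of them at an unadjusted p under 0.05 either, and 0% of all genes (730 of 18727 at an unadjusted p under 0.05). The Axin2 difference depended on the probe, as the other probe gave 0.25 ± 0.43.

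After 4 days on the diets the member values of HFD and ND overlapped for all 6 genes. The differences were 0.10 ± 0.63 for Wif1, -0.11 ± 0.33 for Sfrp1, 0.17 ± 0.23 for Dkk3, 0.12 ± 0.84 for Nkd1, -0.06 ± 0.34 for Nkd2 and -0.77 ± 0.91 for Axin2 (SE, n = 3 per group). Limma called 0 of 6 members and 0% of all genes, with 817 genes at an unadjusted p under 0.05. The intervals were narrowest for Dkk3 (-0.34 to 0.68) and widest for Axin2 (-2.75 to 1.21). The effect at 3 months minus that at 4 days was -1.21 ± 0.90 for Wif1, -0.46 ± 0.33 for Dkk3 and -0.70 ± 1.29 for Axin2. It was 0.32 ± 0.47 for Sfrp1, 0.28 ± 1.19 for Nkd1 and 0.31 ± 0.48 for Nkd2. This test called 0 of 6 members and 0% of all genes, with 701 genes at an unadjusted p under 0.05 (limma).

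The age comparisons set stem cells of 24-month-old mice in telogen against those of younger mice. Nkd1, the intracellular inhibitor, had the largest differences of the 6 genes, with aged arrays below all younger arrays, and it did not pass the test. Its aged mean was at least 5.66-fold below the mean of the 4 younger groups (fitted difference -2.84 ± 0.67, limma unadjusted p 0.00105, adjusted p 0.164). With the same floor the aged mean was 3.69-fold below ND 3 months (interval of the fitted difference -4.06 to -0.39, limma, adjusted p 0.343). It was 7.29-fold below ND 4 days (interval -5.04 to -1.37, adjusted p 0.304). These bounds set the younger mean against a floor on each aged array, its dimmest signal still well above background or, if higher, the signal of the probe. Complete separation below the 12 younger arrays was seen for 0.636% of genes. A slide block, which rests on the single anagen arrays, turned the Nkd1 difference to 1.87, 3.62 and 0.54 in the same order. Its slide terms come from the HFD anagen arrays at 3 months and 4 days. Nkd1 was not well above background on either of these (-5.64 and -5.40).

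The secreted members had smaller differences in aged mice. Against the mean of the 4 younger groups they were -0.27 ± 0.50 for Wif1, -0.31 ± 0.26 for Sfrp1 and -0.15 ± 0.19 for Dkk3, and Nkd2 had -0.36 ± 0.27 and Axin2 -0.95 ± 0.72. Those of Wif1 and Sfrp1 turned to 0.16 and 0.06 without aged replicate 1, and that of Wif1 turned to 1.48 under the slide block. All 6 were below 0, with a median of -0.34 beside 0.02 over all genes. Limma called 0 of 6 members and 0.107% of all genes against the 4 younger groups, 0 of 6 and 0.0641% against ND 3 months, and 0 of 6 and 0.0374% against ND 4 days, with 1934, 2232 and 1470 genes at an unadjusted p under 0.05. Among the members these were Nkd1 in each comparison and Nkd2 against ND 4 days. The younger groups are shared between these comparisons or contained in each other, so they are not independent.

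For Dkk3 and Nkd2 the values depended on the younger group used. Dkk3 was -0.38 ± 0.23 from ND 3 months (adjusted p 0.548) and 0.01 ± 0.23 from ND 4 days. Its 3 aged arrays lay below the 3 ND 3 months arrays, as did those of Nkd1 and of 6.46% of all genes. Nkd2 was -0.74 ± 0.34 from ND 4 days (adjusted p 0.631) and 0.11 ± 0.34 from ND 3 months. Its 3 aged arrays lay below the 3 ND 4 days arrays, as did those of Nkd1 and of 6.52% of all genes. Axin2 was -1.80 ± 0.91 from ND 3 months (adjusted p 0.455) and -1.22 ± 0.91 from ND 4 days (0.823). Of 10 fibroblast markers 7 were tested, and their summed linear level was 8.79 to 13.96 on aged arrays and 14.8 to 27.2 on younger ones. The summed bulge markers were 388.8 to 695.0 on aged arrays and 499.5 to 681.9 on younger ones, and the part of either list in the values of aged mice was not tested.

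Between the normal diets, 5-month-old (3 months) minus 2-month-old (4 days) mice, Nkd2 had the smallest p of the members. Its difference was -0.85 ± 0.34 and did not pass the test (limma, unadjusted p 0.0263, adjusted p 0.369), and its 3 arrays of older mice lay below the 3 of younger mice, which held for 19.8% of all genes. Dkk3 had a difference of 0.39 ± 0.23 (adjusted p 0.534), with its arrays of older mice above those of younger mice, which held for 4.41% of all genes. Wif1 (0.63 ± 0.63), Sfrp1 (0.46 ± 0.33), Nkd1 (-0.98 ± 0.84) and Axin2 (0.58 ± 0.91) overlapped. Limma called 0 of 6 members and 0.016% of all genes, with 2219 at an unadjusted p under 0.05. These groups lay on different slides, and the slide block turned the Nkd2 difference to 0.90. In the test for any difference among the 5 telogen groups 0 of 6 members and 0.0481% of all genes were called (2318 genes at an unadjusted p under 0.05). The adjusted p was 0.273 for Nkd1, 0.447 for Nkd2, 0.511 for Sfrp1, 0.69 for Axin2, 0.785 for Dkk3 and 0.813 for Wif1.

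**Figure D3:**
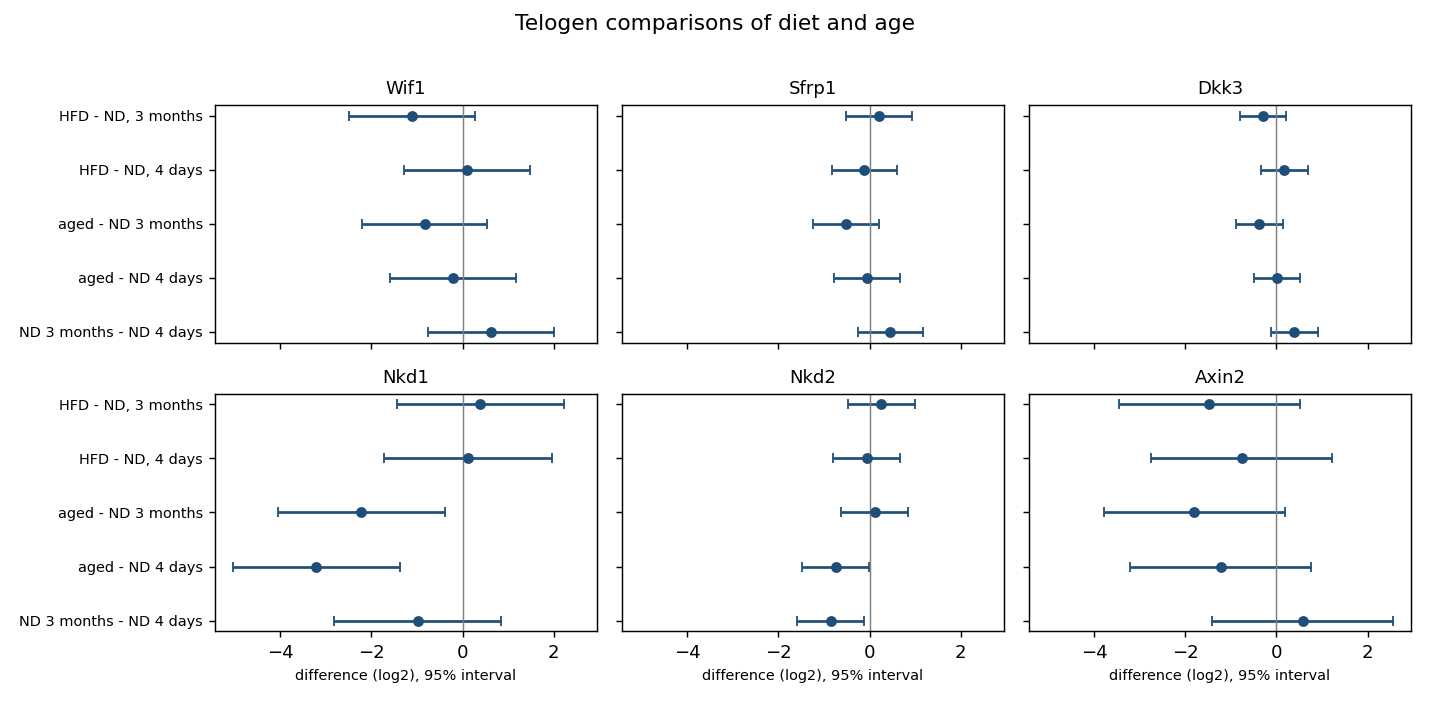
Fitted differences between telogen groups in log2 (horizontal axis) with 95% intervals, 1 panel per gene and 1 row per comparison (n = 3 arrays per group). The intervals are narrow for Dkk3 and Sfrp1 and wide for Nkd1 and Axin2, and no difference passed the test over all genes. The aged Nkd1 points (-2.22 and -3.20) use aged signals that were not well above background.

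Dkk3 and Axin2 each had a second tested probe. The Dkk3 probes correlated with r = 0.83 over the 20 arrays and 0.49 over the 15 telogen arrays. On the second Dkk3 probe the aged telogen arrays read 3.33, 3.36 and 2.81 and lay below all 12 younger arrays, whose lowest was 3.49, a separation seen for 0.636% of genes on their brightest probe. The difference from the 4 younger groups was -0.53 ± 0.19 on that probe (limma over 43374 probes, adjusted p 0.396), against -0.15 ± 0.19 on the brighter one. The Axin2 probes correlated with r = 0.32 over the 20 arrays and 0.25 over telogen, so that they ranked the samples differently. On the second Axin2 probe (A_52_P54176) the aged arrays read -3.21, -3.25 and -2.96, close together where the brighter probe (A_66_P134405) spread from -2.72 to 0.63. Its difference from the 4 younger groups was -1.30 ± 0.34 (adjusted p 0.245), and its anagen difference was -1.12 ± 0.35 (adjusted p 0.0889).

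**Figure D4:**
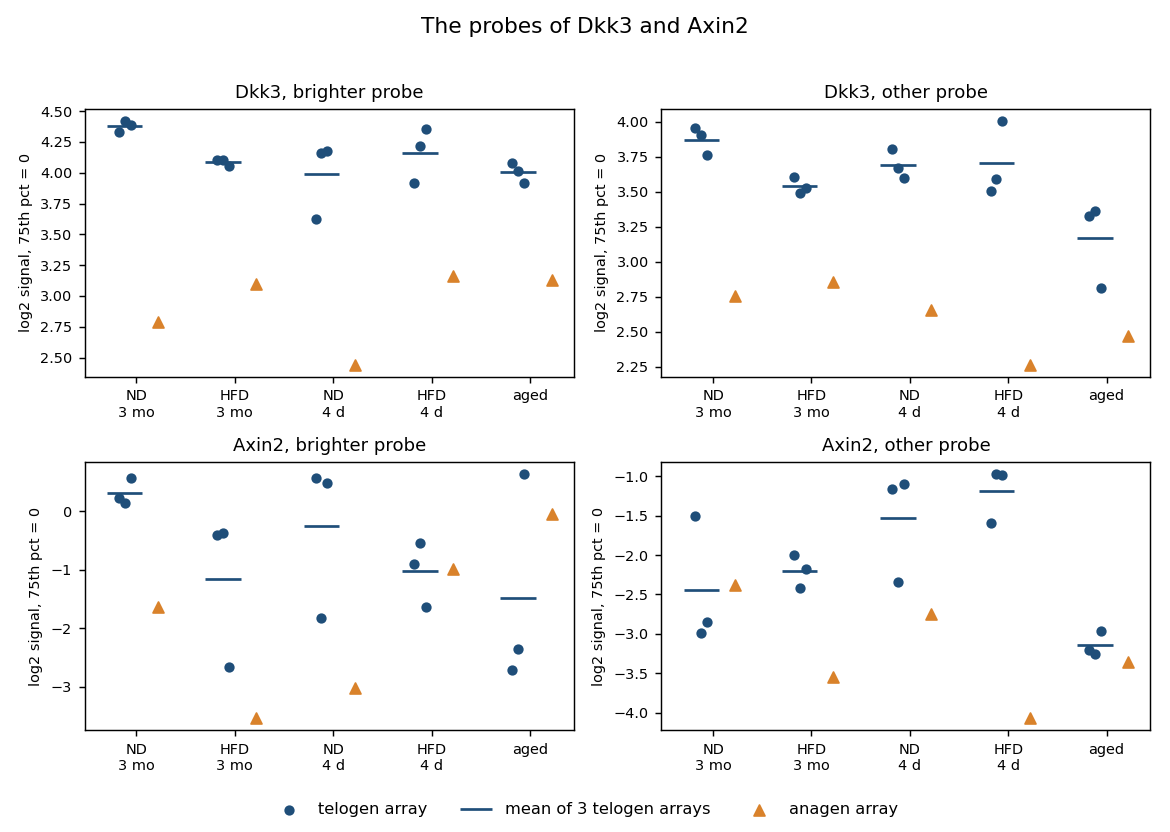
Log2 signal on the arrays (vertical axis, 75th percentile of the array = 0) by condition (horizontal axis) for both tested probes of Dkk3 (top) and Axin2 (bottom). Circles are telogen arrays, bars their means and triangles anagen arrays, with separate vertical scales. Both Dkk3 probes are lower in anagen, whereas the aged Axin2 arrays spread from -2.72 to 0.63 on the brighter probe and from -3.25 to -2.96 on the other.

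Of 96 further Wnt pathway genes listed, 86 were tested. In anagen 5 were lower and 0 higher beside 6.11% of all genes called, and their median difference was -0.12 against -0.16 over all genes. All 5 were among the 16 tested receptors. Fzd3, a Frizzled receptor, fell by 2.24 ± 0.31 (adjusted p 0.000525), from a telogen range of 0.59 to 2.19 to an anagen range of -1.98 to 0.50 without overlap. Fzd8 (-2.33 ± 0.53, adjusted p 0.0153) and Fzd2 (-0.79 ± 0.21, adjusted p 0.0382) fell with overlap. Fzd9 was called lower (limma, adjusted p 0.00035), with all 15 telogen arrays well above background (-2.40 to 2.05) and only 1 of 5 anagen arrays (-6.23 to -1.79). It passed the filter through telogen, and its fitted size is not given because it rests on signals at background. Fzd8 was well above background on 3 of 5 anagen arrays, and the other 3 receptors on all 5. Fzd5, the remaining one, fell by 2.47 ± 0.68 (adjusted p 0.0423), and it is named outside the naming rule, which takes 4 genes of a list.

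None of the other lists had a called gene in anagen (limma; 15 of the 86 genes had an unadjusted p under 0.05, beside 4280 of 18727 over all genes). Of the 9 tested other secreted inhibitors 8 were below 0, with a median of -0.18. Of the 16 tested other membrane and intracellular inhibitors 9 were below 0 (median -0.14), of the 8 other target genes 6 (-0.34), of the 17 core components of the beta-catenin pathway 8 (0.03) and of the 20 ligands and agonists 10 (0.02). In the telogen comparisons of diet and age limma called 0 of the 86 genes, with 11, 13 and 10 at an unadjusted p under 0.05 in aged against the 4 younger groups, ND 3 months and ND 4 days. The same counts over all 18727 genes were 1934, 2232 and 1470. In HFD against ND there were 5 at 3 months and 4 at 4 days, beside 730 and 817 over all genes. Aged against the 4 younger groups, 54 of 86 were below 0 with a median of -0.14. The core components stood at 16 of 17 below 0 (median -0.30) and the other target genes at 7 of 8 (median -0.27), with 48.69% of all genes below 0. The other membrane and intracellular inhibitors stood at 12 of 16 (median -0.37) and the receptors at 9 of 16 (median -0.07). The other secreted inhibitors leaned the other way, with 3 of 9 below 0 (median 0.26), as did the ligands and agonists with 7 of 20 (median 0.23).

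Across the 20 arrays the members did not follow one pattern. The highest correlation between 2 members was that of Wif1 and Dkk3 (r = 0.71 over 20 arrays, 0.48 over the 15 telogen arrays), and those of Sfrp1 with the other 5 lay between -0.03 and 0.15. The genes most like each member were sought among those well above background on all 20 arrays. For Dkk3 they were Myh14 (r = 0.95), Aqp3 (0.94) and Krt24 (0.94), and for Wif1 they were Il17ra (0.87), Hoxa2 (0.85) and Abr (0.85). The Dkk3 correlation with Krt24 was 0.27 within telogen and that with Myh14 was 0.84. For Nkd2 they were Bfar (0.93), Bmp8a (0.92) and Npcd (0.92), for Sfrp1 Sardh (0.79), Acy1 (0.79) and Matn2 (0.78), for Nkd1 Tspan7 (0.79), Spef1 (0.78) and Zdhhc9 (0.73), and for Axin2 Prpsap2 (0.83), Trex1 (0.78) and Tnfrsf22 (0.75). The arrays share 5 conditions, 2 phases and 3 slides, and each list holds the highest of about 12086 correlations, so these values are descriptions.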

How the data were processed

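Per the file headers, the deposited scanner files hold processed spot intensity values (background-subtracted) from Agilent Feature Extraction 10.7.1.1. The authors' deposited series values hold a linear signal per probe, which matched that intensity divided by the 75th percentile of the array; its column medians were 0.088 to 0.168, and genes were not centred. Here intensities were averaged per probe and log2-transformed, and the 75th percentile of each array was subtracted. The filter kept 43395 of 56605 probes, those above background (the scanner's well-above-background flag) in a whole telogen group of 3 or in 3 or more anagen arrays. Of all probes, 32994 matched 1 RefSeq symbol and 23611 matched none. A gene took its brightest tested probe (18727 genes).

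Telogen groups were compared in 1 limma 3.58.1 fit over 15 arrays (R 4.3.3, jsonlite 2.0.0, version 1.17.8 of data.table), and phases over 20 arrays with condition as a factor. Tests were two-sided, adjusted over all genes by Benjamini-Hochberg, called at 0.05 and tested on simulated data. P-values reflect only the spread among these samples, which may be technical, and the number of arrays limits the precision. Members, gene lists and tests were chosen with earlier results of these data known. The naming rule took the members, up to 4 called genes per pathway list with the smallest p, and the 3 genes most correlated with each member. Same-numbered arrays correlated between -0.14 and 0.06 in their deviations, and the samples were treated as unpaired. Low correlation cannot exclude that equal numbers mark something shared, which the labels do not say. Alternatives were other background corrections (normexp, offset 50, on the median signal), scalings, filters, probe choices, weights, arrays in the fit, replicate and slide blocks, leaving out each array, and, added after seeing the data, the other probe and the conditions within a slide.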

Additional observations from a re-analysis of the deposited data

How the results depend on the processing

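Dkk3 stayed lower in anagen and past the threshold under every alternative run (-1.34 to -0.99), and Wif1 under all but the slide block and the fit within slides (-2.25 to -1.45). Of 1022 alternative values of the members, 960 kept direction and side of the threshold, 59 reversed, 2 were weaker and 1 was stronger; the cause was not tested. Members called in anagen numbered 1 with the slide block and 1 within slides, fits that share the same phase differences. The replicate block changed no call of a member. Array number and dim signal, for Nkd1 above all, limit the telogen comparisons.

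Counts of genes called over all genes moved by over 1.5 times in these cases. Aged against ND 3 months gave 2 with normexp, 0 with probes detected on all arrays, 20 with array weights, 0 with only the arrays compared, 7 with the replicate block, 5 with the slide block and 5 to 24 without single arrays. Aged against ND 4 days gave 3 with normexp, 12 with quantile normalization, 0 with probes detected on all arrays, 0 with only the arrays compared, 1 with the slide block and 4 to 6 without single arrays. Aged against the 4 younger groups gave 5 with probes detected on all arrays, 3 with the slide block and 7 to 29 without single arrays. ND 3 months against ND 4 days gave 5 with weights, 0 with only the arrays compared, 0 with the replicate block, 7 with the slide block and 0 to 4 without single arrays. Any difference among telogen groups gave 3 with normexp, 18 with quantile normalization, 1 with probes detected on all arrays, 15 with weights and 6 to 21 without single arrays. HFD at 3 months gave 1 with quantile normalization, 1 with median scaling and 0 to 1 without single arrays, HFD at 4 days 1 with only the arrays compared and 0 to 1 without single arrays, and the difference of diet effects 1 with median scaling, 1 with only the arrays compared and 0 to 1 without single arrays. Anagen gave 1761 with weights, 677 with the slide block, 317 within slides and 555 to 2056 without single arrays. Lower genes made up 54.1% of the anagen calls, 34% with median scaling, 69.4% with the slide block and 65% within slides.

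These member differences reversed, none of them called. Those of Nkd1 under the slide block rest on HFD anagen signals that were not well above background. Quantile normalization gave 0.051 for Nkd2 in HFD at 4 days, 0.092 for Sfrp1 in aged against ND 4 days and 0.021 for Sfrp1 in anagen. Median scaling gave -0.031 for Nkd1 and -0.047 for Wif1 in HFD at 4 days, -0.162 for Nkd2 in aged against ND 3 months, -0.117 for Dkk3 in aged against ND 4 days and 0.152 for Sfrp1 in anagen, while it moved the median of all genes in aged against ND 3 months from 0.06 to -0.22. The percentile over probes detected on all arrays gave 0.031 for Nkd2 in HFD at 4 days and 0.057 for Sfrp1 in aged against ND 4 days. The mean over probes gave -0.255 for Dkk3 in aged against ND 4 days and -0.168 for Axin2 in ND 3 months against ND 4 days. Array weights gave -0.053 for Nkd1 in HFD at 3 months, -0.172 for Nkd1 in the difference of diet effects and 0.027 for Sfrp1 in anagen. The slide block gave, in aged against ND 3 months, 3.616 for Nkd1, -1.094 for Nkd2 and 1.86 for Wif1; in aged against ND 4 days, -0.153 for Dkk3, 0.54 for Nkd1 and 0.686 for Wif1; in aged against the younger groups, 1.869 for Nkd1 and 1.483 for Wif1; and in ND 3 months against ND 4 days, -0.507 for Axin2, 0.896 for Nkd2 and -1.175 for Wif1. The other probe gave 0.245 and 0.346 for Axin2 in HFD at 3 months and 4 days, -0.913 for Axin2 in ND 3 months against ND 4 days and -0.525 for Dkk3 in aged against ND 4 days.

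Leaving out each array gave ranges across 0 as follows. In HFD at 3 months Nkd1 ranged from -0.361 to 1.106. In HFD at 4 days Dkk3 ranged from -0.008 to 0.297, Nkd1 from -0.622 to 0.558, Nkd2 from -0.363 to 0.145, Sfrp1 from -0.233 to 0.051 and Wif1 from -0.45 to 0.492. In the difference of diet effects Axin2 ranged from -1.114 to 0.081 and Nkd1 from -0.478 to 1.015. In aged mice Nkd2 ranged from -0.111 to 0.252 against ND 3 months, Dkk3 from -0.167 to 0.11, Sfrp1 from -0.329 to 0.316 and Wif1 from -0.493 to 0.225 against ND 4 days, and Sfrp1 from -0.583 to 0.062 and Wif1 from -0.541 to 0.162 against the younger groups. Axin2 in ND 3 months against ND 4 days ranged from -0.208 to 0.987 and Sfrp1 in anagen from -0.149 to 0.019.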
